A study of Homo sapiens with 20 samples.

Results

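Imprinted genes, which are expressed mainly from the copy inherited from 1 parent, were followed through 5 gastric cancer cell lines treated with the DNA demethylating drug decitabine (DCB). The members are 39 genes of 60232 in the table, taken by gene symbol from a list. They lie in 16 loci on 11 chromosomes, and 35 of the 39 had values that summed to more than 10 over the 20 libraries and were tested. ZIM2, SNURF, MAGEL2 and HYMAI were below that limit. The study asked how gastric cancer cells carrying Epstein-Barr virus (EBV) and those without it respond to DCB. YCCEL1 and SNU719 are EBV+ lines, and AGS, HGC27 and SNU16 are EBV− lines, AGS being the one of these that the study classes with the EBV+ lines as having a CpG island methylator phenotype. Each line received the solvent DMSO or 7.5 μM DCB for 72 h, with 2 RNA-seq libraries for each line and treatment. The labels give every sample as wild type, and the same lines served as their own DMSO controls.

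Imprinting is set in the germ line as DNA methylation on 1 parental copy of a control region, and it is copied at each cell division by the maintenance methyltransferase DNMT1. The methylated copy of a control region can silence a nearby gene on its own chromosome or, by silencing a noncoding RNA or blocking an insulator, allow its neighbors to be expressed. Decitabine replaces cytidine in newly made DNA, where it binds DNA methyltransferases for good, so that methylation is lost as cells divide. Values of a gene sum both parental copies, so expression of the normally silent copy could not be told apart from more RNA from the active copy. Fewer cells with a transcript and less of that transcript per cell likewise could not be told apart in these bulk samples.

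All values are normalized counts as deposited, which are not whole reads. The totals ran from 7764408 to 9321014 per library, and the most frequent value above 0, taken as about 1 read, ran from 0.754 to 1.21. Values of a few units are therefore a few reads. Of 10 epithelial markers, the summed level was 41184 to 111904 in the libraries of YCCEL1, SNU719, AGS and SNU16, but 276.4 to 326.6 in HGC27 with DMSO and 717.3 to 842.9 in HGC27 with DCB. HGC27 also had a summed level of 47562 to 52565 for 8 fibroblast and endothelial markers, led by the collagens COL3A1 and COL1A1, against 7.33 to 304.5 in the DMSO libraries of the other lines. Of 5 immune markers, PTPRC, CD3E and CD14 averaged at most 6.87 in any group, and the summed level of 42.4 to 71552 was mostly LYZ, which gastric epithelium also makes. CD79A, a component of the B cell receptor, rose in SNU719 from 1.90 and 4.32 to 25.04 and 37.3 (adjusted p = 0.0131) and was at most 16.3 in the other libraries, and its part in the results for SNU719 was not tested. HGC27 thus stood apart from its label as a gastric cancer line in these markers, and the part of that difference in the results for HGC27 was not tested.

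Promoter sequences were taken from RefSeq (GRCh38.p14) for 26 of the 39 members, as 300-base windows from 250 bases before to 50 bases after 1 annotated start per gene. The windows of MEG3 on the + strand (chr14:100825858-100826157), of NAP1L5 on the − strand (chr4:88697780-88698079) and of ZNF597 on the − strand (chr16:3443455-3443754) are shown because MEG3 rose in all 5 lines, whereas NAP1L5 and ZNF597 were called in HGC27 and in no other line. Capitals mark CG dinucleotides, the sites at which DNA methyltransferases act, and each sequence reads 5′ to 3′ on the strand of the gene.
MEG3: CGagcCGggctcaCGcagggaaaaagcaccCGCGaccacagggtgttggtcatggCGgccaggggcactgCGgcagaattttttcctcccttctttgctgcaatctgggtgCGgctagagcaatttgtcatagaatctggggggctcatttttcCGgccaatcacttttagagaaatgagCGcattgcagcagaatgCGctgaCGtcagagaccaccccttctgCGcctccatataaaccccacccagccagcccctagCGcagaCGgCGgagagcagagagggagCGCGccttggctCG
NAP1L5: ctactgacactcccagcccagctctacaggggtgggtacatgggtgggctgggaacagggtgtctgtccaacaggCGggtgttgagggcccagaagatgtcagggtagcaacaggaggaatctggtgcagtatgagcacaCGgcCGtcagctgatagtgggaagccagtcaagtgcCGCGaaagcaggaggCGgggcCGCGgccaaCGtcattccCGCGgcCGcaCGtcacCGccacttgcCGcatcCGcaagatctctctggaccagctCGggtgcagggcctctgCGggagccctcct
ZNF597: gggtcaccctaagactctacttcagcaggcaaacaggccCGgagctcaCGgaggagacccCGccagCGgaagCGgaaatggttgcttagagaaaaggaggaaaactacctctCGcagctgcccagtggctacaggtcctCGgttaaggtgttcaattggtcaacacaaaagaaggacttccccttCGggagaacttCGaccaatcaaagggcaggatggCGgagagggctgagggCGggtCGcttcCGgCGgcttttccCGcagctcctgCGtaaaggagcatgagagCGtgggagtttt

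These windows held 19, 18 and 17 CG dinucleotides, more than in 57.1%, 55.5% and 54.0% of 35116 promoters of the same length. Chromosome 8 was left out of that set, which is meant here by all promoters. Over the 26 members the median was 18, with a range of 4 to 44, against a median of 14 over all promoters. Of the 26, 18 were at or above the median of all promoters and 8 were above its upper quartile of 28. CG density near this start was therefore not uniform among the imprinted genes. The most CG-rich windows were those of UBE3A and GRB10 with 44 each, and the poorest was that of MEG9 with 4. Only 1 start per gene was read, and several members have others. Methylation was not measured in these libraries.

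Most of the imprinted genes that responded to DCB rose, but few did so in every line. Of the 39 members, 25 rose in at least 1 line, 6 fell in at least 1 line, and 8 of those tested passed the test in none. Of all genes tested, 38.9% rose in at least 1 line, 22% fell in at least 1 and 46.7% passed in none. Here rose and fell mean a Benjamini-Hochberg adjusted p below 0.05 from limma over all 27350 genes tested. The 3 members that rose in all 5 lines were MEG3, a maternally expressed noncoding RNA, PEG10, a retrotransposon-derived gene, and NNAT, which encodes the small membrane protein neuronatin, and 0.585% of all genes rose in all 5. With the further limit of an absolute log2 fold change above 2, the call rule of the study, 20 members were called higher in at least 1 line, 1 was called lower, and 10 were called in 1 line only. The same held for 19%, 1.78% and 12.8% of all genes. All fold changes are on the log2(value + 1) scale, which understates the change of genes with low values.

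**Figure D1:**
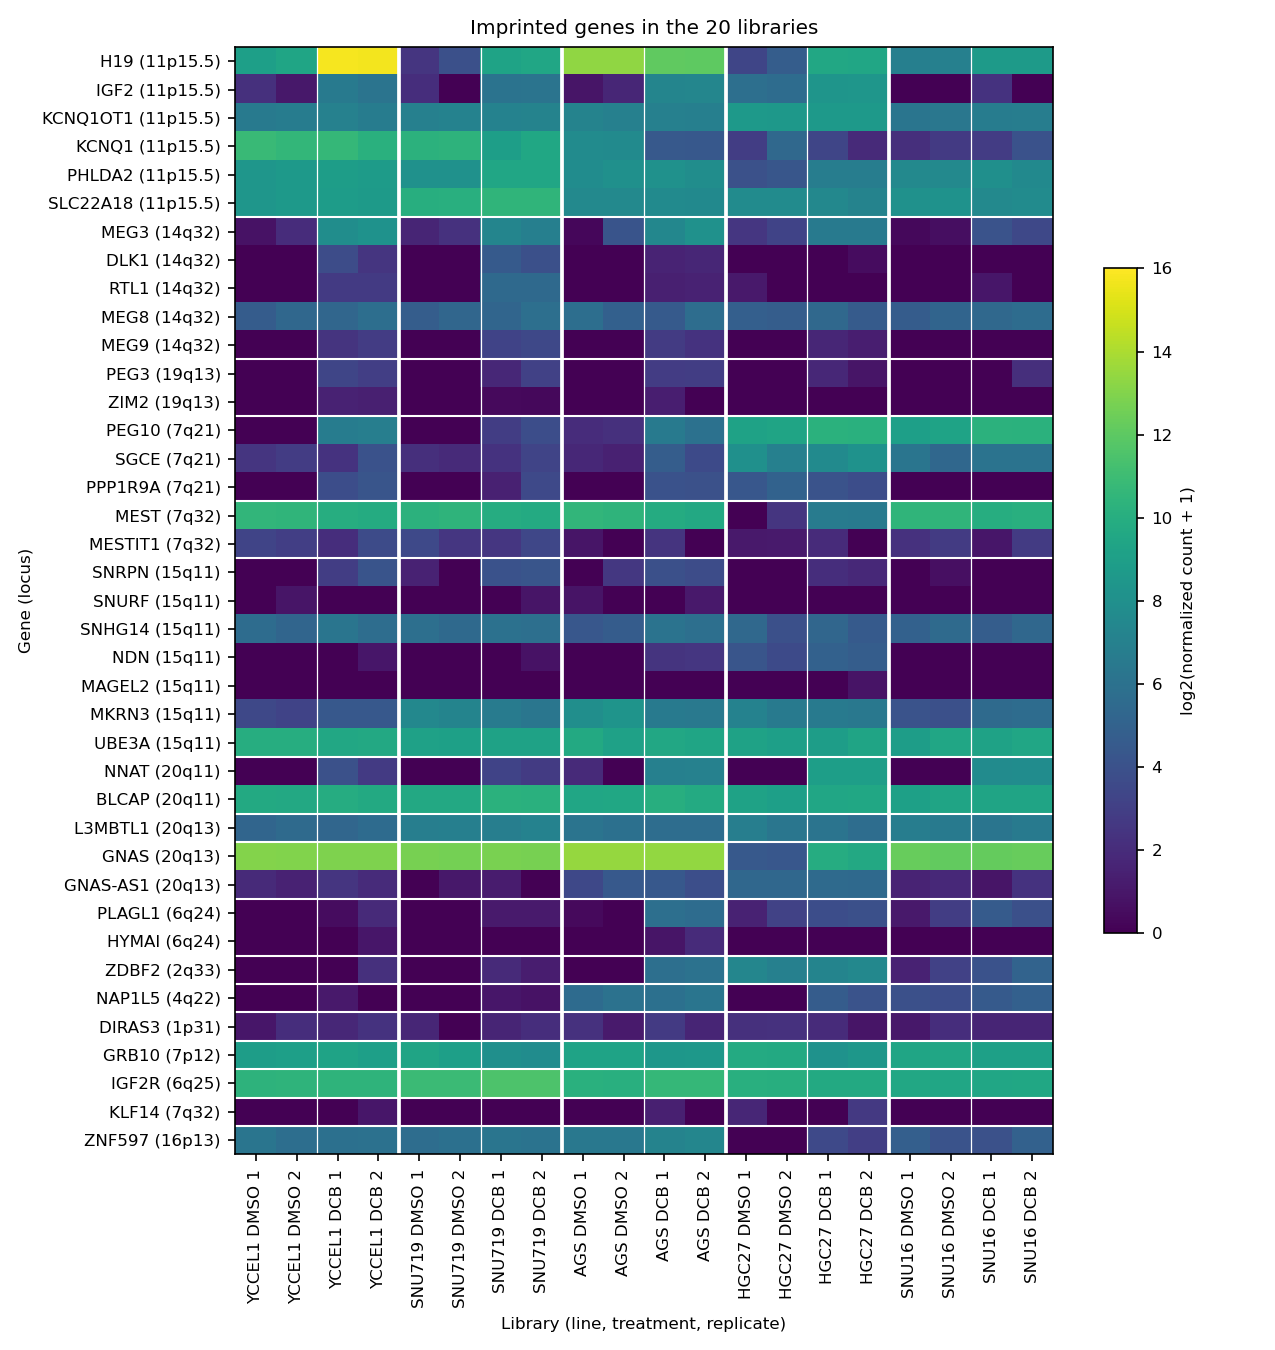
Level of the 39 imprinted genes (rows, grouped by locus) in each of the 20 libraries (columns, by line, treatment and replicate), with the color giving log2(normalized count + 1). Dark cells are at or near 0. Many rows turn from dark in DMSO to lighter in DCB within a line, whereas H19 in AGS is lighter in DMSO.

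The share of members that responded exceeded the share of all genes in each line, on the side of higher expression. This difference in shares was not tested, and the members were chosen with earlier results of these data known. Members at 0 in DMSO could only rise, and the share of all genes was not matched for such genes. DLK1, MEG9 and PEG3 entered the test through DCB libraries alone. In YCCEL1, 12 of 35 tested members rose and none fell, where 14.6% of all genes rose and 6.93% fell. SNU719 had 15 rises and 2 falls among the members, against 13.5% and 7.64% of all genes. AGS had 17 and 4, against 18.5% and 9.13%. HGC27 had 12 and 3, against 14.7% and 9.03%, and SNU16 had 5 and 1, against 4.5% and 2.34%. With the fold limit, 11 members were called higher in YCCEL1 (background 7.99%), 11 in SNU719 (6.38%), 12 in AGS (9.02%), 9 in HGC27 (4.95%) and 2 in SNU16 (2.31%), which is 34.3% of the members in AGS and 5.71% in SNU16. The only member called lower was KCNQ1 in AGS, where 0.636% of all genes were called lower. That background was 0.135% in SNU16, 0.197% in YCCEL1, 0.249% in SNU719 and 0.618% in HGC27.

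The median log2 fold change over the members was 0.71 in AGS against 0.12 over all genes, 0.62 against 0.11 in SNU719, 0.52 against 0.09 in YCCEL1, 0.38 against 0.04 in HGC27 and 0.11 against 0.01 in SNU16. These medians include members at 0 in DMSO, whose fold change depends on the pseudocount. In YCCEL1 and SNU719, 16 members were at 0 in both DMSO libraries, and after DCB 2 and 3 were. The same count went from 11 to 1 in AGS, from 11 to 4 in HGC27 and from 13 to 10 in SNU16.

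Over the 5 lines, 18 members rose and 1 fell, where 17.9% of all genes rose and 6.94% fell. With the fold limit 10 were called higher and none lower, where 3.4% and 0.00731% of all genes were. Libraries, not lines, are the units of the fit over the 5 lines, so its p-values may be too small as statements about lines. The effect of DCB differed between lines for 22 of the 35 by an F test over the 4 differences between the lines (adjusted p below 0.05), a test that 34.2% of all genes passed. Members expressed from the paternal copy and those expressed from the maternal copy both rose in part. Of 20 tested members of the paternal copy 12 rose over the 5 lines, with a median log2 fold change of 1.144, and of 14 of the maternal copy 6 rose, with a median of 0.61. The difference between the parental groups was not tested. GRB10, whose parental copy depends on the tissue, was the member that fell over the 5 lines.

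**Figure D2:**
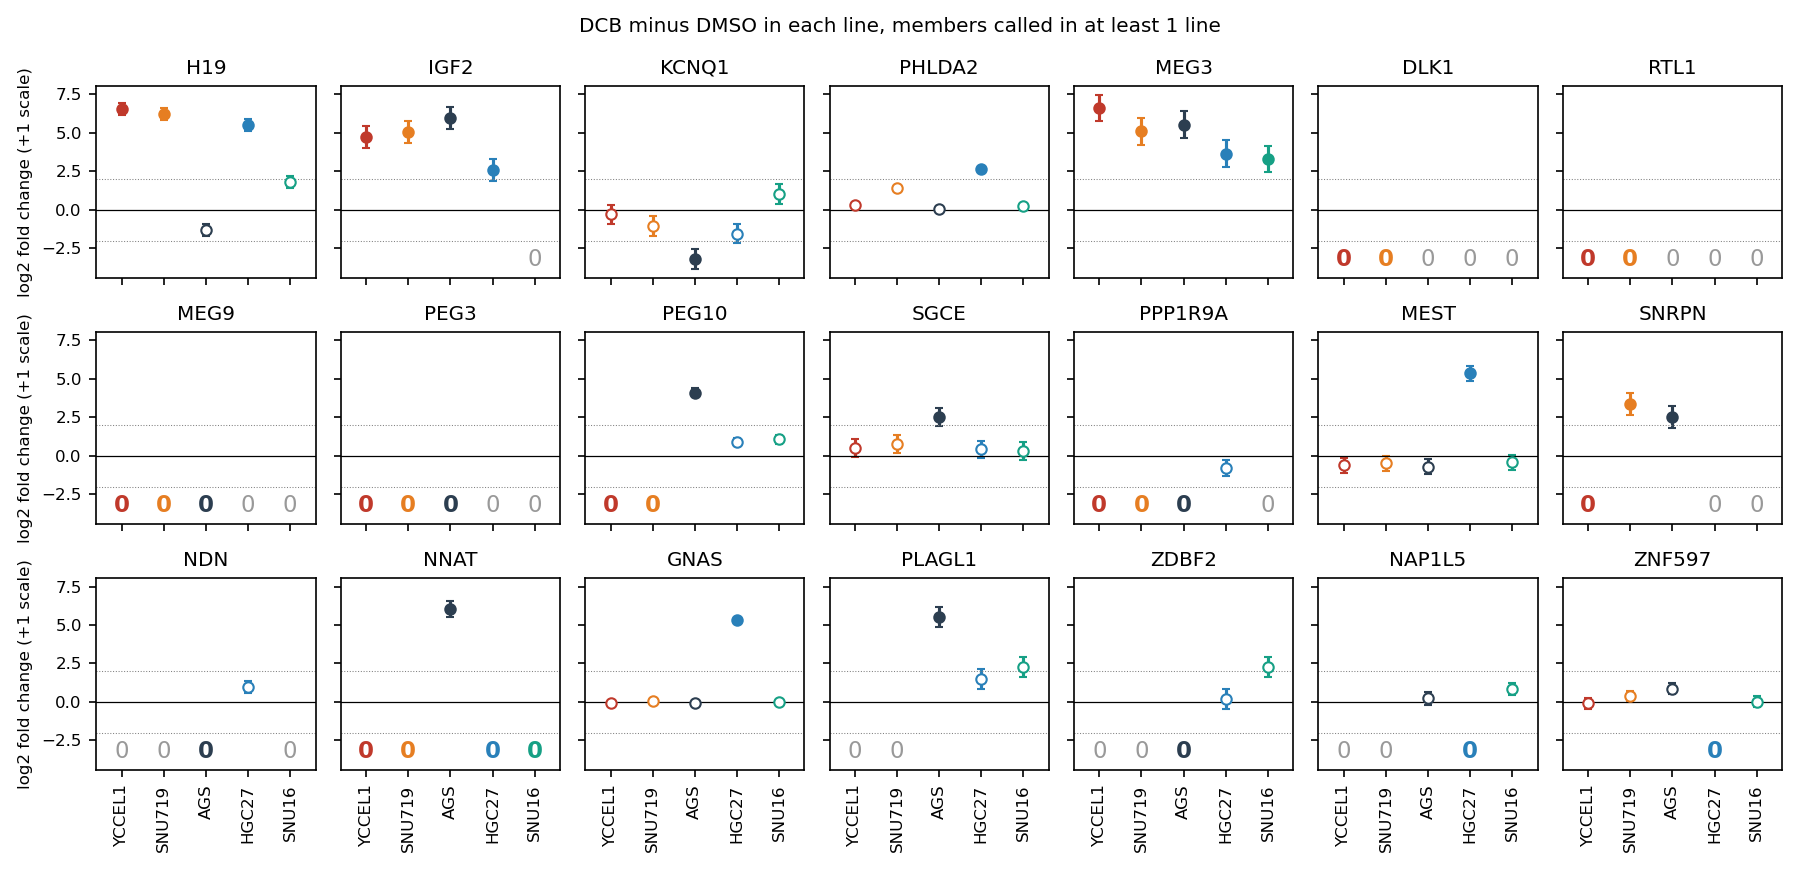
DCB minus DMSO log2 fold change on the log2(value + 1) scale, with its standard error from limma, in each line for the 21 members called in at least 1 line. Filled points were called, open points were not, and dotted lines mark the fold limit of 2 in either direction. A 0 stands where the DMSO or the DCB libraries of the line were both at 0, so that no fold is given, in bold color where the gene was called.

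At 11p15.5, H19 rose in 4 lines and fell in the fifth. H19 (chromosome 11 of GRCh38, 1995176 to 2001470) is a noncoding RNA of the maternal copy that shares enhancers with IGF2. In YCCEL1 it was 524.4 and 680.5 in the DMSO libraries and 55360 and 55059 in the DCB libraries, a mean 91.6-fold higher (log2 fold change 6.53, standard error 0.39, adjusted p = 4.6e-08). Its share of the library total went there from 0.00569% and 0.00730% to 0.642% and 0.641%. In SNU719 it went from 4.57 and 13.9 to 630.2 and 708.3 (log2 fold change 6.20, adjusted p = 1.1e-07). In HGC27 it went from 9.23 and 25 to 787.1 and 699.5 (log2 fold change 5.51, adjusted p = 1.8e-07).

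H19 moved the other way in AGS, the line in which it was most abundant before treatment. There it was 10199 and 10500 in DMSO and 4354 and 4125 in DCB (log2 fold change −1.29, standard error 0.39, adjusted p = 0.0251). In SNU16 it rose from 118.8 and 124.4 to 423.6 and 418.8 (log2 fold change 1.78, adjusted p = 0.0138). Groups did not overlap in any of the 5 lines. The effects in AGS and SNU16 no longer passed the test when any 1 of that line's 4 libraries was left out, at adjusted p up to 0.106 and 0.0781. The difference of effects between lines passed the F test (adjusted p = 4.0e-07).

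IGF2 (chromosome 11, 2129112 to 2141238), the growth factor of the paternal copy beside H19, rose in 4 lines, AGS included. In AGS it went from 0.904 and 2.27 to 151.4 and 159.4 (log2 fold change 5.97, standard error 0.71, adjusted p = 2.5e-05). In YCCEL1 it went from 3.58 and 1.01 to 90.6 and 71.4 (4.75, adjusted p = 0.000266). SNU719 had 3.22 and 0 in DMSO and 66.2 and 68.9 in DCB (5.06, adjusted p = 0.000157). IGF2 was thus within a few reads of 0 before treatment in these lines, whereas HGC27 had it at 57.4 and 50.5. In HGC27 it rose to 328.6 and 338.5 (2.61, adjusted p = 0.0159), a call lost when any 1 of the 4 libraries of HGC27 was left out, at adjusted p up to 0.0766. In SNU16 it was at 0 in both DMSO libraries and at 4.003 and 0 in DCB (adjusted p = 0.443).

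Further along 11p15.5 the genes split. KCNQ1, a potassium channel subunit, fell in AGS from 205.3 and 198.1 to 21.5 and 20.3 (log2 fold change −3.21, standard error 0.64, adjusted p = 0.00178). In SNU719 its values were 1222 and 1293 in DMSO and 497.5 and 743.5 in DCB (adjusted p = 0.302), and in YCCEL1 they were 1808 and 1542 and then 1602 and 1155 (adjusted p = 0.843). HGC27 had 6.55 and 41.9 and then 8.94 and 2.83, and SNU16 had 3.45 and 5.63 and then 6.29 and 15.53. AGS was therefore the single line in which KCNQ1 passed the test, and its effects differed between lines (F test, adjusted p = 0.0213). The spread in this test is shared by all lines and includes the HGC27 DMSO libraries at 6.55 and 41.9. A smaller fall in another line could thus be missed, and in SNU719 both DCB libraries lay below both DMSO libraries. KCNQ1OT1, the paternal noncoding RNA that lies antisense within KCNQ1, ran from 74.98 to 403.4 over the 20 libraries and passed the test in no line.

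PHLDA2, a pleckstrin-homology protein that restrains placental growth, rose in HGC27 and SNU719. In HGC27, where it was lowest in DMSO at 14.97 and 18.1, it reached 110.1 and 108.8 (log2 fold change 2.66, standard error 0.15, adjusted p = 2.0e-08). In SNU719 it went from 270.1 and 266.3 to 712.6 and 711.0 (1.40, adjusted p = 1.6e-05). Its other groups lay between 183.9 and 481.2, and the adjusted p was 0.184 in YCCEL1, 0.797 in AGS and 0.479 in SNU16. SLC22A18, the adjacent organic cation transporter, rose slightly in SNU719 (0.41, adjusted p = 0.0173) and fell slightly in HGC27 (−0.45, adjusted p = 0.00919) and SNU16 (−0.49, adjusted p = 0.0162). These effects of SLC22A18 no longer passed the test when single libraries of the line were left out, at adjusted p up to 0.0923, 0.0955 and 0.118.

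At 14q32 (chromosome 14, 100725705 to 101072937) MEG3 rose in every line, from a few reads or less in most DMSO libraries. In YCCEL1 MEG3 went from 0.684 and 3.06 to 227.0 and 285.1 (log2 fold change 6.61, standard error 0.87, adjusted p = 8.4e-05). In SNU719 it went from 2.18 and 3.96 to 152.6 and 118.4 (5.09, adjusted p = 0.000753), and in AGS from 0.230 and 16.97 to 171.2 and 274.6 (5.53, adjusted p = 0.000274). The AGS DMSO libraries of MEG3 thus differed from each other by more than those of any other line. In HGC27 MEG3 went from 4.79 and 8.43 to 90.8 and 92.6 (3.65, adjusted p = 0.00689). In SNU16 it went from 0.245 and 0.511 to 15.8 and 9.88 (3.30, adjusted p = 0.0365). Over the 5 lines MEG3 had 4.84 as its log2 fold change (standard error 0.45, adjusted p = 7.8e-07), and the F test between lines did not pass (adjusted p = 0.181). The call in HGC27 was lost without its first DMSO library (adjusted p = 0.0543), and the call in SNU16 was lost without any 1 of 10 libraries (adjusted p up to 0.180). MEG3 is the gene whose promoter window is shown above with 19 CG dinucleotides.

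DLK1, RTL1 and MEG9 of 14q32 were at or close to 0 without DCB. DLK1, a transmembrane ligand of the Notch family and the paternal counterpart of MEG3, was at 0 in all 10 DMSO libraries, so that it could only rise. With DCB it was 12.03 and 4.57 in YCCEL1, 21.8 and 13.7 in SNU719, 2.02 and 2.32 in AGS, 0 and 0.454 in HGC27 and at 0 in both SNU16 libraries. It rose in YCCEL1 (adjusted p = 6.1e-05), SNU719 (adjusted p = 3.9e-06) and AGS (adjusted p = 0.00565). RTL1, a retrotransposon-derived gene required in the placenta, was at 0 in every DMSO library except 1 of HGC27 at 1.15. SNU719 had the most RTL1 after DCB, at 44.2 and 43.0 (adjusted p = 3.5e-07), followed by YCCEL1 at 5.52 and 5.72 (adjusted p = 0.000204) and AGS at 1.68 and 1.93 (adjusted p = 0.0121, and up to 0.0578 without single AGS libraries). In HGC27 it was at 0 after DCB, and in SNU16 it was 0.988 and 0. MEG9, a maternal noncoding RNA, was at 0 in all 10 DMSO libraries, so that it could only rise, and it rose in 4 lines. It reached 4.36 and 6.31 in YCCEL1, 8.41 and 9.99 in SNU719, 5.82 and 4.01 in AGS, 2.33 and 1.56 in HGC27 and at 0 in SNU16. MEG8, a maternal noncoding RNA between them, ran from 21.7 to 57.6 in all libraries and passed the test in no line.

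At 7q21 (chromosome 7, 94524204 to 95296415) PEG10, a paternal gene of retrotransposon origin, rose from very different levels. It was at 0 in both DMSO libraries of YCCEL1 and SNU719. With DCB it rose to 102.1 and 112.9 in YCCEL1 (adjusted p = 1.1e-09) and 6.36 and 12.8 in SNU719 (adjusted p = 1.2e-06). AGS went from 3.11 and 3.72 to 91.3 and 61.4 (log2 fold change 4.11, standard error 0.27, adjusted p = 9.0e-08). HGC27 and SNU16 already held high levels, and there the change was smaller. HGC27 went from 602.4 and 649.9 to 1175 and 1164 (0.90, adjusted p = 0.0276), and SNU16 from 520.2 and 631.7 to 1237 and 1173 (1.07, adjusted p = 0.0312). These small rises were lost when any 1 of the line's 4 libraries was left out, at adjusted p up to 0.119 and 0.189. The F test between lines gave PEG10 an adjusted p of 3.3e-07.

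Its neighbors followed PEG10 in part. SGCE, the sarcoglycan gene that lies head to head with PEG10, rose in AGS from 2.39 and 1.803 to 25.03 and 11.1 (log2 fold change 2.53, adjusted p = 0.00484), a call lost without its first DCB library (adjusted p = 0.0616). In YCCEL1 and SNU719 SGCE stayed between 2.81 and 15.3, and in HGC27 and SNU16 between 39.6 and 289.5, and it passed the test in none of them. PPP1R9A, a neuronal actin-binding protein, was at 0 in the DMSO libraries of 4 lines. It reached 12.5 and 17.3 in YCCEL1 (adjusted p = 8.4e-05), 1.81 and 10.7 in SNU719 (adjusted p = 0.00311) and 15.1 and 14.8 in AGS (adjusted p = 5.7e-05), and it was at 0 in SNU16 with DCB too. In HGC27 it was 19.6 and 31.4 in DMSO and 16.03 and 12.5 in DCB (adjusted p = 0.349). PPP1R9A thus appeared in the lines in which PEG10 had been low or absent.

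PEG3 at 19q13, a paternal zinc finger gene, was at 0 in all 10 DMSO libraries, so that it could only rise. After DCB it was 9.01 and 6.67 in YCCEL1 (adjusted p = 0.00157), 6.17 and 6.52 in AGS (adjusted p = 0.00215) and 2.40 and 7.48 in SNU719 (adjusted p = 0.00881). The call in SNU719 was lost without its second DCB library (adjusted p = 0.0999). HGC27 had 2.42 and 0.898 and SNU16 had 0 and 3.48, and neither passed the test. ZIM2, which shares exons with PEG3, was at most 1.95 in any library and was not tested.

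GNAS, MEST, NAP1L5 and ZNF597 rose in HGC27 and passed the test in no other line, and their effects differed between lines by the F test (adjusted p = 1.7e-13, 3.6e-05, 0.000306 and 0.000545). GNAS (chromosome 20, 58839718 to 58911192) encodes the stimulatory G protein α subunit, whose imprinting is confined to some tissues and transcripts. It was 21.5 and 19.7 in HGC27 with DMSO and 955.5 and 801.4 with DCB (log2 fold change 5.34, standard error 0.07, adjusted p = 4.3e-15). In the other lines GNAS lay between 4614 and 11488 with either treatment and passed the test in none, so that HGC27 stayed below every other line after DCB as well. MEST, a paternal gene of the α/β hydrolase fold at 7q32, was 0 and 4.57 in HGC27 with DMSO and 98.7 and 94.6 with DCB (5.37, standard error 0.49, adjusted p = 2.0e-06). In the other lines MEST was 1247 to 1477 in DMSO and 808.1 to 1115 in DCB. Those DCB libraries all lay below those of DMSO in the same line, and the difference passed the test in none of them (adjusted p between 0.336 and 0.775). The spread in this test is shared by all lines and includes the HGC27 DMSO libraries of MEST at 0 and 4.57. Falls of this size in the other lines could thus be missed.

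NAP1L5 and ZNF597 were both undetected in HGC27 before treatment. NAP1L5, a paternal nucleosome assembly protein gene inside an intron of HERC3, was at 0 in both DMSO libraries of HGC27 and at 24.6 and 16.3 with DCB (adjusted p = 2.0e-06). It was 47.3 and 64.9 in AGS with DMSO and 58.9 and 72.2 with DCB, and 14.2 and 12.9 in SNU16 with DMSO and 21.7 and 28.6 with DCB, without passing the test. In YCCEL1 and SNU719 it was at 0 in DMSO and at most 1.10 in DCB. ZNF597, a maternal zinc finger gene at 16p13, was at 0 in both DMSO libraries of HGC27 and at 10.8 and 6.996 with DCB (adjusted p = 9.0e-06). In the other lines ZNF597 ran from 14.8 to 164.6 and passed the test in none, the nearest being AGS with 85.6 and 82.8 in DMSO and 143.8 and 164.6 in DCB (adjusted p = 0.0841). The windows of both genes, shown above, hold 18 and 17 CG dinucleotides. Epithelial markers moved with this group, since 6 of 10 rose and 1 fell in HGC27, but their summed level with DCB stayed below 843, and their part in these results was not tested.

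**Figure D3:**
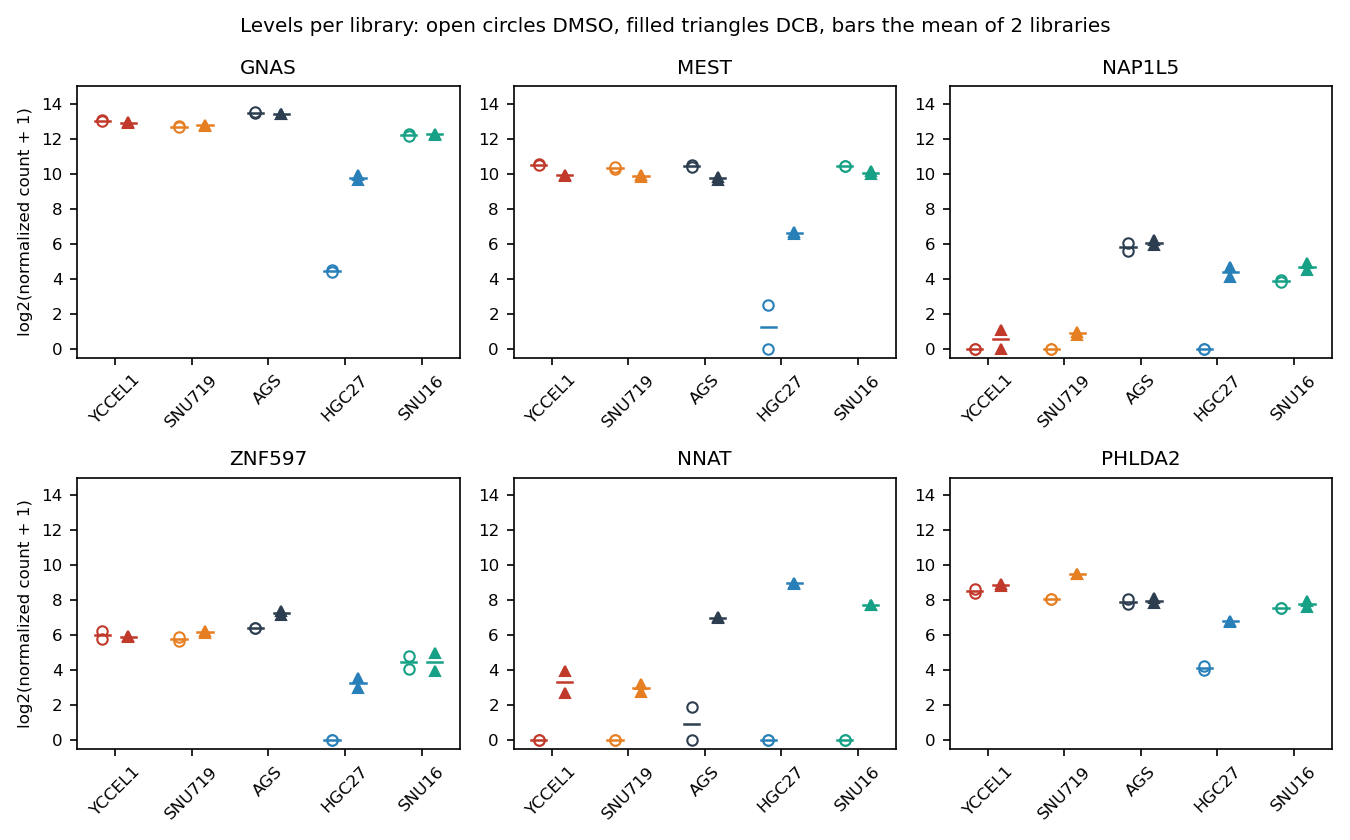
Level as log2(normalized count + 1) of 6 members called higher in HGC27, in each library by line, with open circles for DMSO, filled triangles for DCB and bars for the mean of 2 libraries. GNAS, MEST, ZNF597 and PHLDA2 were lower in HGC27 with DMSO than in every other line, NAP1L5 was at 0 there, and NNAT was at or near 0 in all lines with DMSO and highest in HGC27 with DCB.

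NNAT at 20q11 (chromosome 20, 37521206 to 37523690) rose in all 5 lines, and it did so most in lines without EBV. It was at 0 in the DMSO libraries of every line but AGS, which had 2.77 and 0. DCB took it to 490.2 and 506.2 in HGC27 (adjusted p = 2.6e-08), 208.1 and 214.4 in SNU16 (adjusted p = 8.9e-07) and 125.0 and 128.0 in AGS (log2 fold change 6.04, standard error 0.53, adjusted p = 1.4e-06). The EBV+ lines reached 14.5 and 5.48 in YCCEL1 (adjusted p = 0.000449) and 8.20 and 5.79 in SNU719 (adjusted p = 0.00106). No EBV+ library reached the level of any EBV− library with DCB. In SNU16, NNAT and MEG3 were the members called higher. BLCAP, the gene within whose intron NNAT lies, ran from 528.9 to 1173 and rose slightly over the 5 lines (log2 fold change 0.30, standard error 0.07, adjusted p = 0.00278).

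At 15q11 (chromosome 15, 23565674 to 25439051), the Prader-Willi and Angelman region, low paternal genes rose while UBE3A, the ubiquitin ligase of the maternal copy in neurons, did not pass the test. SNRPN, a paternal spliceosome protein gene, was at 0 in YCCEL1 with DMSO and at 6.60 and 17.04 with DCB (adjusted p = 0.00235). In SNU719 it went from 1.87 and 0 to 15.6 and 17.9 (log2 fold change 3.39, adjusted p = 0.00324), and in AGS from 0 and 4.99 to 13.95 and 12.4 (2.53, adjusted p = 0.0156). The call in AGS was lost without its first DMSO library or either DCB library (adjusted p up to 0.204). HGC27 was at 0 and then at 3.29 and 2.65 (adjusted p = 0.0580), and SNU16 had 0 and 0.604 and then 0 in both. SNRPN was thus at most a few reads in DMSO in every line.

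NDN, the paternal growth suppressor necdin, was at 0 in AGS with DMSO and at 4.21 and 4.81 with DCB (adjusted p = 0.000312). HGC27 had it in DMSO at 17.3 and 10.9 and in DCB at 30.5 and 25.7 (adjusted p = 0.0926), and the other lines had at most 0.953. SNHG14, the long host transcript of small nucleolar RNAs, rose in AGS from 19.1 and 23.7 to 66.5 and 56.8 (1.49, adjusted p = 0.0214). This rise did not pass the test without any 1 of the 4 AGS libraries (adjusted p up to 0.111). MKRN3, a paternal ubiquitin ligase gene linked to the timing of puberty, had no common direction. It rose in YCCEL1 from 9.995 and 8.22 to 20.3 and 20.4 (1.09, adjusted p = 0.00329) and in SNU16 from 16.3 and 14.1 to 46.2 and 50.02 (1.60, adjusted p = 0.000552). It fell in AGS from 238.8 and 310.6 to 92.3 and 88.7 (−1.58, adjusted p = 0.000131) and in SNU719 from 175.2 and 145.2 to 100.2 and 75.5 (−0.87, adjusted p = 0.0139). The fall in SNU719 did not pass the test without its first DMSO or second DCB library (adjusted p up to 0.124). The rise in YCCEL1 was lost with quantile normalization (0.15, adjusted p = 0.749). SNURF and MAGEL2 were at most 1.12 in any library and were not tested.

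PLAGL1 and ZDBF2 were called in AGS only, and their effects differed between lines by the F test (adjusted p = 0.00735 and 0.00200). PLAGL1, a zinc finger growth inhibitor at 6q24, was 0.346 and 0 in AGS with DMSO and 56.2 and 48.8 with DCB (log2 fold change 5.52, standard error 0.64, adjusted p = 2.0e-05). In SNU16 it went from 1.10 and 6.64 to 23.1 and 14.2 (2.26, adjusted p = 0.0520), in HGC27 from 1.93 and 7.85 to 12.7 and 13.96 (adjusted p = 0.119), and in the EBV+ lines it was at 0 in DMSO and at most 2.81 in DCB. ZDBF2, a paternal zinc finger gene at 2q33, was at 0 in AGS with DMSO and at 55.5 and 65.7 with DCB (adjusted p = 1.1e-05). HGC27 expressed ZDBF2 in both conditions, at 160.5 and 124.8 in DMSO and 149.2 and 173.0 in DCB (adjusted p = 0.933). SNU16 had 1.84 and 7.40 and then 15.7 and 32.8 (adjusted p = 0.0519), and the EBV+ lines had 0 in DMSO and at most 3.69 in DCB. KCNQ1, SGCE and NDN were likewise called in AGS and in no other line. Of the 8 fibroblast and endothelial markers, COL1A1, LUM and VWF rose in AGS, and the summed level of the 8 was 291.5 to 304.5 in DMSO and 1957 to 2012 in DCB, mostly from COL1A1. In YCCEL1 3 of the 8 also rose, and the summed level there was 7.33 to 28.6 in DMSO and 86.1 to 90.1 in DCB. The part of these markers in the results was not tested.

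The abundant members at single-gene loci changed less. GRB10, an adaptor that dampens insulin and insulin-like growth factor signaling, fell in HGC27 (−1.45, standard error 0.12, adjusted p = 1.0e-06), SNU719 (−1.30, adjusted p = 4.4e-06) and AGS (−0.80, adjusted p = 0.000234). In HGC27 it was 885.9 and 856.1 in DMSO and 288.1 and 350.2 in DCB. In YCCEL1 it was 485.2 and 512.2 and then 632.9 and 516.6 (adjusted p = 0.308). IGF2R, the receptor that clears IGF2, rose in SNU719 (0.62, adjusted p = 4.1e-06) and AGS (0.54, adjusted p = 9.4e-06) and fell in HGC27 (−0.34, adjusted p = 0.000596). IGF2R, H19, SLC22A18 and MKRN3 were the 4 members that rose in some lines and fell in others, as did 7.54% of all genes. DIRAS3, L3MBTL1, KLF14, GNAS-AS1 and MESTIT1 passed the test in no line. DIRAS3 stayed at or below 5.48 and KLF14 at or below 5.44, whereas L3MBTL1 ran from 35.9 to 133.0.

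Several single-line effects depended on the spread shared by the 5 lines. When each line was fitted alone, with 2 libraries against 2, the test was no longer passed by DLK1, SNRPN, MKRN3 and NNAT in YCCEL1 or by IGF2, PEG3, PPP1R9A, SNRPN and MKRN3 in SNU719. The same was true of MEG3, SGCE, SNRPN and BLCAP in AGS, of SLC22A18, MEST and BLCAP in HGC27, and of SLC22A18, MEG3, PEG10 and MKRN3 in SNU16. The adjusted p of these 20 effects then ran from 0.0619 to 0.261.

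Between EBV+ and EBV− lines, the mean effect of DCB was called higher for 6 members and lower for 1, where 2.78% and 0.658% of all genes were. H19 had a log2 fold change larger by 4.36 in the EBV+ lines (standard error 0.36, adjusted p = 1.3e-06), with effects of 6.53 and 6.20 in YCCEL1 and SNU719 and −1.29, 5.51 and 1.78 in AGS, HGC27 and SNU16. HGC27 was therefore close to the EBV+ lines for H19. The others called higher were DLK1 (adjusted p = 4.3e-05), RTL1 (adjusted p = 8.3e-06), PEG10 (adjusted p = 1.4e-06), PPP1R9A (adjusted p = 0.00515) and SNRPN (adjusted p = 0.0365). NNAT was called lower (adjusted p = 2.0e-05). For these genes no size of the difference is given because lines at 0 in DMSO enter it. The call for SNRPN was lost without any 1 of 15 libraries, at adjusted p up to 0.100.

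Without the fold limit, 9 members had a higher and 6 a lower effect in the EBV+ lines, where 10.5% and 9.17% of all genes did. GNAS (−1.78, adjusted p = 2.7e-10) and MEST (−1.97, adjusted p = 0.00615) were among the lower ones, and HGC27 was the single line in which either rose. Each EBV group is made of lines, 2 with and 3 without the virus, and the p-values use the spread between libraries of a line, not that between lines. The 2 EBV+ lines also differ from the EBV− lines in tumor of origin, and these cannot be told apart. The EBV− group also joins AGS with HGC27 and SNU16, which the study classes as lacking the CpG island methylator phenotype. DLK1, RTL1, PPP1R9A and SNRPN rose in YCCEL1, SNU719 and AGS and passed the test in neither HGC27 nor SNU16. For them this contrast cannot separate EBV status from methylator phenotype.

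Genes of 1 cluster were then compared with each other in the same libraries. For each of 11 pairs, the change in log2(value + 1) of the first gene minus that of the second was averaged over the 5 lines and tested by an exact two-sided permutation test of the treatment labels within lines, with 7776 assignments and a smallest possible p of 0.0002572. Of the 11 pairs, 7 passed at an adjusted p below 0.05. The pairs were chosen with earlier results of these data known, so the passes are no independent support for the effects of single genes. MEG3 moved more than DLK1 in all 5 lines, by 2.99 on average (permutation p = 0.0002572, adjusted p = 0.00141), and NNAT more than BLCAP in all 5, by 5.50 (permutation p = 0.0002572, adjusted p = 0.00141). PEG10 moved more than SGCE in all 5, by 2.32 (adjusted p = 0.00377 by the permutation test). By the permutation test, the other pairs that passed were SNRPN minus UBE3A (2.22, adjusted p = 0.00566), SNRPN minus SNHG14 (1.77, adjusted p = 0.00613), PHLDA2 minus SLC22A18 (0.97, adjusted p = 0.00613) and KCNQ1OT1 minus KCNQ1 (1.16, adjusted p = 0.0352). Each was positive in 4 of 5 lines. PHLDA2 minus SLC22A18 was 3.11 in HGC27 but 0.06 in YCCEL1 and −0.02 in AGS, and without HGC27 its mean was 0.44. KCNQ1OT1 passed the limma test in no line, and its difference from KCNQ1 was largest in AGS, where KCNQ1 fell. KCNQ1OT1 minus KCNQ1 no longer passed without YCCEL1, SNU719, AGS or HGC27 (adjusted p = 0.0679, 0.116, 0.185 and 0.0594 by the permutation test), and without AGS its mean was 0.68. Since DLK1, NNAT, PEG10 and SNRPN are at 0 in DMSO in several lines, the sizes of these differences depend on the pseudocount. NNAT minus BLCAP and SNRPN minus UBE3A largely restate the rises of NNAT and SNRPN given above, since their partners changed little.

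In 4 pairs the mean did not pass the test, and in 3 of them a single line stood against the rest. H19 minus IGF2 averaged −0.16 (permutation p = 0.856, adjusted p = 0.856), with −7.26 in AGS and values from 0.62 in SNU16 to 2.90 in HGC27 in the others. H19 and IGF2 thus rose together in 3 lines and moved in opposite directions in AGS. Without AGS the mean was 1.61 (adjusted p = 0.0364 by the permutation test). MEST minus MESTIT1 averaged 0.71 (permutation p = 0.377), with 5.50 in HGC27. GNAS minus GNAS-AS1 averaged 0.88 (permutation p = 0.254), with 5.19 in HGC27, where GNAS-AS1 was 40.1 and 39.2 in DMSO and 45.01 and 43.1 in DCB. GNAS-AS1 itself did not pass the test in HGC27 (adjusted p = 0.940). SGCE minus PPP1R9A averaged −1.03 (permutation p = 0.0656, adjusted p = 0.0902). That pair passed the permutation test with a pseudocount of 0.5 (−1.51, adjusted p = 0.0417) and without HGC27 (−1.59, adjusted p = 0.0170).

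**Figure D4:**
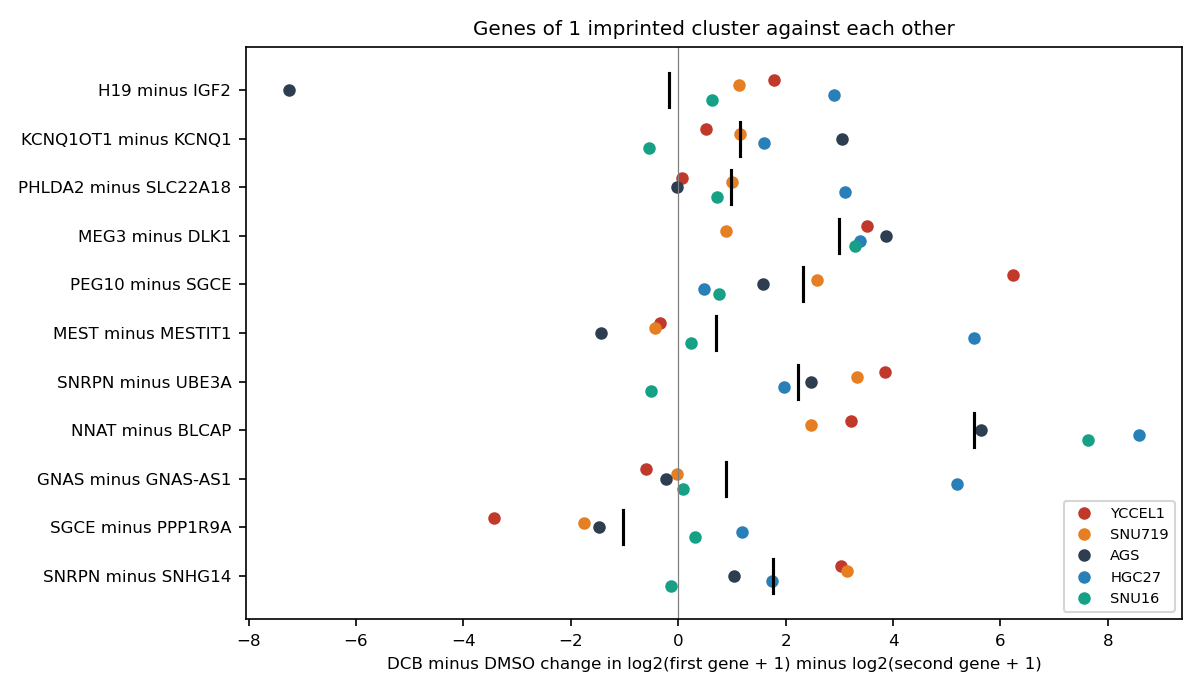
Change with DCB of the first gene minus that of the second gene, in log2(value + 1), for 11 pairs of genes from 1 imprinted cluster. Points are the 5 lines and black bars their mean. All 5 points are above 0 for MEG3 minus DLK1, PEG10 minus SGCE and NNAT minus BLCAP, and AGS lies at −7.26 for H19 minus IGF2.

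Some of these pairs share transcribed sequence. By GENCODE exons on opposite strands, GNAS and GNAS-AS1 overlap by 1127 bases, SNHG14 and UBE3A by 1822, MEST and MESTIT1 by 484, PEG10 and SGCE by 219, KCNQ1 and KCNQ1OT1 by 121 and NNAT and BLCAP by 85. On the same strand SNRPN overlaps SNURF by 813 bases and SNHG14 by 141, PEG3 overlaps ZIM2 by 1264 and PLAGL1 overlaps HYMAI by 289. The sources used here differ on whether the libraries kept strand, so reads in these stretches could not be assigned to 1 gene with certainty. H19, IGF2, MEG3, NAP1L5 and ZNF597 have no such overlap with another member. H19, IGF2 and MEG3 do share exon bases with 3, 4 and 4 genes outside the members, whereas NAP1L5 and ZNF597 share none.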

How the data were processed

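The authors deposited normalized counts of 60232 genes in 20 libraries as a single matrix, whose unit is taken here as a signal, and no value column was left out. The study's methods describe 3′ QuantSeq libraries, which keep strand, with reads mapped by STAR to GRCh38 plus EBV, whereas the submitters' processing notes name GRCh37 with DESeq2 1.14.1, featureCounts 1.5.1 and STAR 2.5.2b, and the labels describe poly(A) libraries. Its coordinates were those of GRCh38, as 92.6% of 60064 genes had the start and end given by GENCODE. The methods name MKN74 where the labels name HGC27, and the labels were followed. The steps between reads and the deposited values, beyond these tools, are not given in the sources used here.

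Since the values are not whole counts, log2(value + 1) was fitted with limma 3.58.1 (lmFit, eBayes with trend) for the 27350 genes whose values summed to more than 10 over the 20 libraries. Effects of single lines, the EBV difference and the F test came from a fit of 10 groups, and the effect over 5 lines from a fit of line plus treatment. R 4.3.3 and version 1.17.8 of data.table were used. P-values were adjusted by Benjamini-Hochberg over all genes tested. The spread is shared by the 10 groups, and groups at 0 in both libraries add none to it. Where a group was at 0, no fold is given. The deposited table does not give read depth, so no counting interval is given. Whether both libraries of a group came from separate cultures is not stated, and the p-values rest on the spread between libraries alone, which may be technical. The labels name no batch. Replicates correlated at 0.969 to 0.980 across genes. Pairs of genes were tested in Python 3.11.15 with pandas 2.3.3 and numpy 2.4.6, and figures were drawn with matplotlib 3.10.9. The fits and the permutation test were tested on simulated data.

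The members, the gene lists and the pairs were chosen with earlier results of these data known. Values of each library are given for members called in at least 1 line, over the 5 lines or for the EBV difference, and the others by counts and ranges. Of other imprinted genes, CDKN1C and the 6 with the smallest adjusted p over the 5 lines are named, and of factors that maintain imprints DNMT1, UHRF1, ZFP57, TRIM28, CTCF, CTCFL and up to 4 others called in at least 1 line. Markers of epithelium, immune cells, and fibroblasts and endothelium checked the lines. Alternatives to the pseudocount, filter, scaling, fold limit, variance trend, replicate block and libraries were tried. Bisulfite data and the EBV genome were not analysed here.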

Additional observations from a re-analysis of the deposited data

Results flagged for a closer look

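The effect of DCB differed between the 5 lines for 22 members by the F test over the differences between lines, each given here by its adjusted p from limma. GNAS had the smallest (1.7e-13), followed by PEG10 (3.3e-07), H19 (4.0e-07), PHLDA2 (2.6e-06), IGF2R (3.3e-06), MKRN3 (1.7e-05), RTL1 (1.7e-05), GRB10 (3.0e-05), MEST (3.6e-05) and NNAT (8.3e-05). Values between 0.0001 and 0.01 were found for DLK1 (0.000164), NAP1L5 (0.000306), PPP1R9A (0.000319), MEG9 (0.000355), ZNF597 (0.000545), SLC22A18 (0.00107), ZDBF2 (0.00200), PLAGL1 (0.00735) and IGF2 (0.00934). NDN (0.0211), KCNQ1 (0.0213) and SNRPN (0.0369) were nearest the limit. Background for this test was 34.2% of all genes.

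The difference in effect between EBV+ and EBV− lines was called for 7 members by the limma contrast. The adjusted p was 1.3e-06 for H19, 1.4e-06 for PEG10, 8.3e-06 for RTL1, 2.0e-05 for NNAT, 4.3e-05 for DLK1, 0.00515 for PPP1R9A and 0.0365 for SNRPN. Averaged over lines, NNAT responded less in the EBV+ lines and the other 6 more. AGS nevertheless had a larger effect than SNU719 for PEG10 and PPP1R9A. These p-values rest on libraries, and with 2 EBV+ and 3 EBV− lines they carry no spread between lines of 1 kind. Groups of 2 libraries are too small to look for single outlying libraries.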

How the results depend on the processing

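Of 105 effects of members past the adjusted p, 68 stayed past it under every alternative tried and none changed sign. This count follows the adjusted p alone. Calls with the fold limit of 2 were less stable to the pseudocount and are given below. The adjusted p was no longer passed for 20 of the 71 tried with each line fitted alone, for 9 with quantile normalization, for 10 with the replicate block and for 23 when at least 1 library was left out. The replicate numbers did not pair the libraries, since deviations of libraries with the same number correlated at −0.02 to 0.01, and with the replicate block the members called higher stayed at 11 in YCCEL1, 11 in SNU719, 12 in AGS, 9 in HGC27 and 2 in SNU16, with 10 over the 5 lines and 5 for the EBV difference. Quantile normalization moved the median log2 fold change of all genes by −0.17 in YCCEL1, −0.13 in SNU719, −0.19 in AGS and −0.20 over the 5 lines, and equal library totals moved it by 0.12 in HGC27. In these the direction of no member's passing effect changed.

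Members called higher fell with a pseudocount of 5 to 4 in YCCEL1, 5 in SNU719, 6 in AGS, 1 in SNU16, 5 over the 5 lines and 2 for the EBV difference. With a minimum sum of 100 they were 7 in YCCEL1, 7 in SNU719 and 4 in SNU16, where fewer genes were tested. With each line fitted alone they were 7 in SNU719 and 1 in SNU16. SNU16 had 4 with equal totals, 1 with quantile normalization, 1 without the trend and 5 with a fold limit of 1 or none. Over the 5 lines there were 5 with quantile normalization and 18 without a fold limit. Members called lower without a fold limit were 2 in SNU719, 4 in AGS, 3 in HGC27, 1 in SNU16, 1 over the 5 lines and 6 for the EBV difference. With a limit of 1 they were 1, 3, 1 and 6 in SNU719, AGS, HGC27 and the EBV difference, and with a pseudocount of 0.5 the EBV difference had 2.

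Leaving out single libraries gave 11 to 12 members called higher in YCCEL1, 9 to 11 in SNU719, 10 to 12 in AGS, 7 to 9 in HGC27, 1 to 3 in SNU16, 8 to 12 over the 5 lines and 4 to 7 for the EBV difference, and 20 to 22 for the F test. Those called lower were 1 to 1 in AGS, 0 to 1 in HGC27, 1 to 3 for the EBV difference and 0 elsewhere. SNU16 had 1 without a SNU719 DCB library, an HGC27 DCB library, SNU16 DMSO 1 or SNU16 DCB 2. HGC27 had 1 lower without HGC27 DMSO 1. The EBV difference had 2 lower without YCCEL1 DCB 2, SNU719 DCB 1, SNU16 DMSO 2 or SNU16 DCB 2, and 3 without HGC27 DMSO 2. Of the pairs, 6 to 7 passed. H19 minus IGF2 changed sign to 0.63 with a pseudocount of 5, 1.61 without AGS, 0.07 without SNU16 DCB 1 and 0.19 without SNU719 DMSO 2. With any 1 library or line left out, H19 minus IGF2 ran from −0.93 to 1.61, MEST minus MESTIT1 from −0.49 (without HGC27) to 1.24 and GNAS minus GNAS-AS1 from −0.19 (without HGC27) to 1.26. The cause was not tested. Values near 1 read limit statements on genes at 0 in DMSO.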

Other observations

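Further imprinted genes outside the 39 also rose in part. Of 58 such genes measured, 51 were tested, and 18 rose and 2 fell over the 5 lines, where 17.9% of all genes rose and 6.94% fell, with a median log2 fold change of 0.57 against 0.15 over all genes. CDKN1C, a maternally expressed inhibitor of cyclin-dependent kinases in the 11p15.5 cluster, went in SNU719 from 0.838 and 0.839 to 75.2 and 50.9 (adjusted p = 7.6e-06). In YCCEL1 CDKN1C went from 2.23 and 0 to 34.3 and 37.2 (adjusted p = 3.1e-05), and in AGS from 25.4 and 15.6 to 101.5 and 95.3 (adjusted p = 0.00456). HGC27 had 43.4 and 15.7 and then 38.2 and 32.4, and SNU16 had 89.0 and 81.1 and then 47.5 and 56.5, and neither passed the test. Its response was larger in the EBV+ lines by 4.07 (adjusted p = 3.0e-05). FAM50B, a paternally expressed gene, was at 0 in DMSO in YCCEL1, SNU719 and AGS. With DCB it was 49.1 and 51.6, 16.9 and 17.9, and 37.1 and 27.5 there, whereas SNU16 held 308.8 and 299.3 in DMSO and 348.2 and 328.3 in DCB. COPG2, a coat protein subunit next to MEST, fell over the 5 lines (log2 fold change −0.64, adjusted p = 9.1e-06). ZNF331, DIO3OS, TFPI2 and NLRP2 rose over the 5 lines (adjusted p = 0.000574, 0.000587, 0.00125 and 0.00284).

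Of 25 factors that set or maintain imprints, 6 rose and 3 fell over the 5 lines, against the same shares of all genes. ZFP57, the zinc finger protein that binds methylated imprinting control regions, was at 0 in all 10 DMSO libraries. After DCB it was 18.5 and 12.996 in YCCEL1, 3.35 and 3.51 in SNU719, 36.8 and 27.2 in AGS, 2.53 and 1.81 in HGC27 and 6.77 and 9.29 in SNU16, and it rose in each line. CTCFL, a testis paralog of the insulator protein CTCF, was called higher in each of the 5 lines, and over them its log2 fold change was 3.33 (standard error 0.33, adjusted p = 1.8e-06). CTCF itself did not pass the test over the 5 lines (−0.22, adjusted p = 0.0728), nor did DNMT1 (0.26, adjusted p = 0.338), and TRIM28, the corepressor partner of ZFP57, fell by 0.20 on the log2 scale (adjusted p = 0.0250). In HGC27, DNMT1 went from 1152 and 1185 to 3973 and 3141 (adjusted p = 9.8e-05). UHRF1, its partner at replicating DNA, reached 1162 and 1041 in HGC27 from 170.4 and 160.5. HELLS, a chromatin remodeler, went there from 162.5 and 167.7 to 832.1 and 670.1. These rises were not shared by all lines. In SNU719, the DCB libraries lay below the DMSO libraries for DNMT1, UHRF1 and HELLS alike. The same held for UHRF1 and HELLS in YCCEL1 and for DNMT1 and HELLS in AGS. UHRF1 was higher with DCB in AGS, as was DNMT1 in SNU16. DPPA3, an oocyte factor that protects maternal imprints, was at 0 in all 10 DMSO libraries and was 54.1 and 49.5 in YCCEL1, 4.80 and 3.77 in SNU719 and 10.1 and 19.3 in AGS after DCB. OOEP, a subunit of an oocyte complex, rose in AGS from 0 to 21.5 and 36.7.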
